A study of Mus musculus with 33 samples.

Results

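Fatty acid oxidation and the nuclear receptor that drives it in liver, PPARalpha, were followed in mouse livers and liver tumours through 38 genes listed by function. Of these, 36 were measured among the 18193 genes of the array. Each gene was read on the probe set that carries its symbol alone and has the highest mean over all columns. Acsl1 is on no probe set named here, and Cyp4a10 is only on a probe set shared with Cyp4a31, so neither has a value. The values are the authors' log2 expression values per probe set, and a level on one probe set is not set against the level on another.

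RNA came from whole tissue of mice aged 12 months on one mixed background of FVB/NT, 129S1/Svlmj and C57BL/6NT. The 4 groups were wildtype liver (wt, n = 7), liver of E2f3a knock-out mice (3aKO, n = 5), E2F1 knock-in tumours (1KI, n = 5) and E2F3b knock-in tumours (3bKI, n = 4). The wt and 3aKO livers were normal, and both tumour groups were hepatocellular carcinomas that arose spontaneously, so the effect of a knock-in and that of being a tumour cannot be told apart. The wt and 3aKO arrays were processed once together with the 1KI arrays (normalization 1) and once together with the 3bKI arrays (normalization 2). 1KI and 3bKI were thus never processed together and are not compared with each other. The labels give neither sex nor pooling, and do not say how the knock-in alleles are driven. Where samples of a group were not taken from separate animals, the p-values measure only the spread between samples.

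PPARalpha is a fatty acid sensor that pairs with a retinoid X receptor on DNA and switches on the genes of fat burning in the fasting liver. Long fatty acids are taken up, joined to coenzyme A, carried into mitochondria as carnitine esters and shortened by a cycle of dehydrogenation, hydration, a further dehydrogenation and thiolysis. Peroxisomes run a similar cycle on very long chains, cytochromes of the Cyp4a family oxidise the other end of the chain, and much of the acetyl-CoA becomes ketone bodies.

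Of 10 hepatocyte markers, 9 were measured, and their mean log2 value per array lay at 13.15 to 13.39 in wt, 13.20 to 13.33 in 3aKO and 12.43 to 13.32 in 1KI tumours. In normalization 2 it lay at 13.09 to 13.33 in wt and 12.82 to 13.05 in 3bKI tumours. The widest single range in 1KI was that of Cyp2e1, 9.57 to 14.17 beside 14.04 to 14.24 in wt, while Hnf4a was at 12.36 to 12.75 beside 12.21 to 12.82. Of the 9 markers, 7 had a log2 change below 0 in 1KI against wt, with a median of -0.054. In 3bKI, 8 of 9 were below 0 against wt (median -0.13) and 8 of 9 against 3aKO (median -0.28). Against 3aKO, 1 of the 9 was called lower by limma, where 6.27% of all genes were. Markers of other tissues rich in these enzymes were low in every group, with a mean of 3.37 to 3.75 for 4 adipocyte markers, 3.94 to 4.31 for 5 muscle markers and 3.92 to 4.46 for 4 kidney tubule markers. The mean of 5 stellate cell markers was 6.56 to 7.15 in wt, 7.35 to 7.87 in 1KI and, in normalization 2, 6.47 to 7.07 in wt and 7.04 to 7.95 in 3bKI. The mean of 5 endothelial markers was 7.36 to 7.65 in wt and 7.47 to 8.70 in 1KI, and in normalization 2 it was 7.21 to 7.50 in wt and 7.30 to 7.82 in 3bKI. Of 8 macrophage markers, 6 had a log2 change below 0 in 1KI against wt (median -0.51), and each was above 0 in 3bKI against wt (median 0.27). The part of these cells in the results was not tested. E2f3 had log2 values of 6.59 to 7.03 in wt, and its probe set does not separate the 3a from the 3b product in these files. Its log2 change was -0.19 ± 0.11 (SE) in 3aKO against wt and 0.10 ± 0.12 in 3bKI against wt, and that of E2f1 in 1KI against wt was 0.17 ± 0.11. None of these passed limma's test (adjusted p of 0.700, 0.660 and 0.389). The E2f3 change of 1KI against wt was larger, at 0.57 ± 0.13 (adjusted p = 0.0780), with values of 7.14 to 7.81 in 1KI that were all above wt. As no targeted gene passed the test in its own group, the arrays do not check the genotype labels.

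A few arrays stood apart over the gene group as a whole. The shift of an array is the median over the 36 genes of its log2 value minus the wt mean of the same normalization. In normalization 1, shifts lay between -0.32 and 0.23 in wt and between -0.015 and 0.22 in 3aKO, and in normalization 2 between -0.30 and 0.24 in wt and between -0.012 and 0.21 in 3aKO. In 1KI, replicates 3 and 4 had shifts of -0.69 and -0.62, whereas replicates 1, 2 and 5 were at -0.19, -0.12 and 0.0068. By Xist and Y-linked genes, replicates 2, 3 and 4 of 1KI were males and replicates 1 and 5 females. In 3bKI, replicate 1 was the exception, with a shift of 0.35 against -0.53, -0.40 and -0.39 in replicates 2, 3 and 4. In the tumour of 1KI replicate 3, 26 of the 36 genes lay below the lowest wt liver, and in replicate 4 it was 24, where 26.9% and 27.2% of all genes lay below it. In 3bKI, 25, 20 and 14 genes of replicates 2, 3 and 4 lay below the lowest wt liver, where 20.3%, 19.2% and 11.7% of all genes did. In replicate 1, 14 genes lay above the highest wt liver, where 17.2% of all genes did. Results that rest on these arrays are given with and without them. The arrays were picked by the values of these same genes. Counts and p-values without them are therefore a description and not a test.

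**Figure D1:**
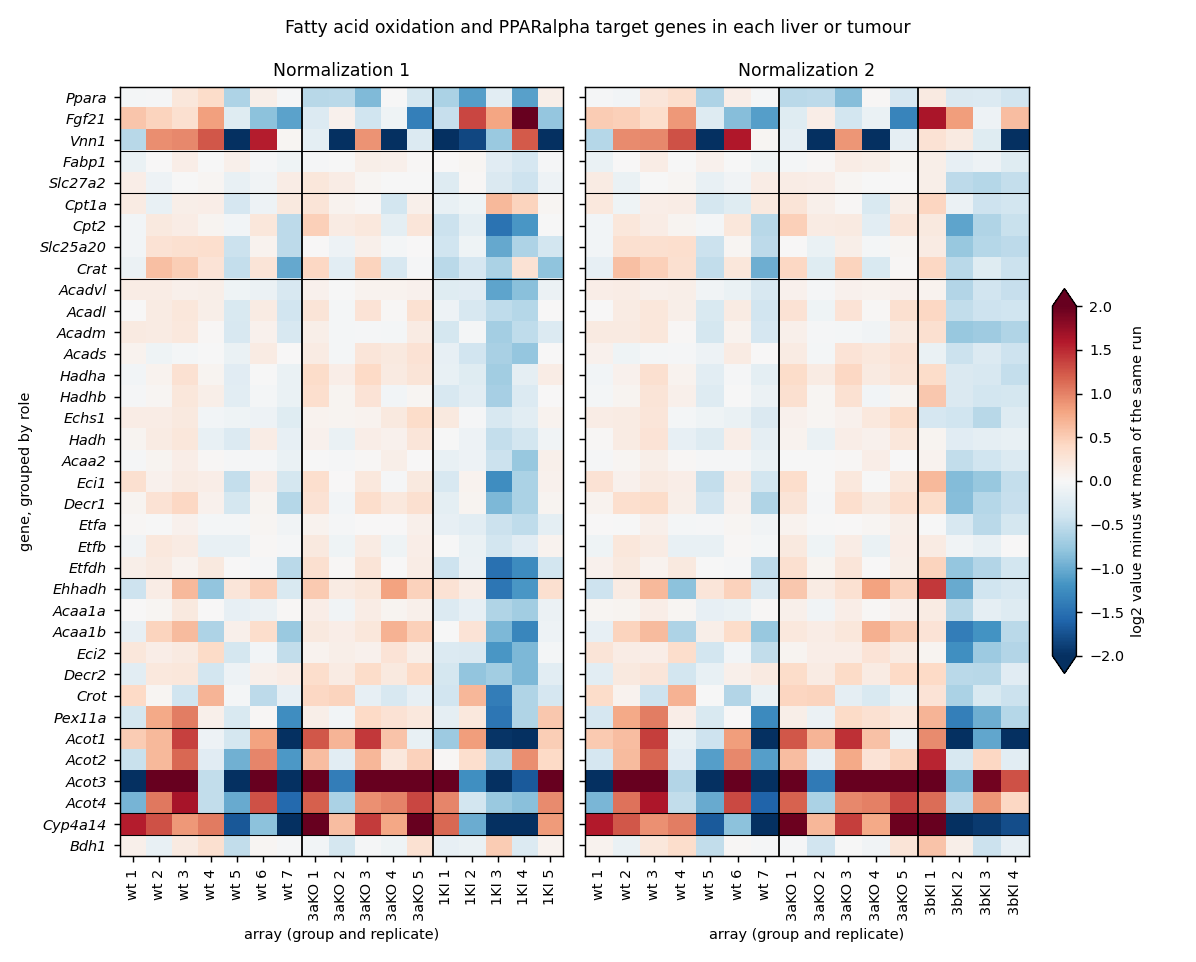
Log2 value of each of the 36 genes (vertical, grouped by role) in each array (horizontal), minus the wt mean of the same normalization, with colours ending at 2 units on either side. In 1KI replicates 3 and 4 and 3bKI replicates 2, 3 and 4, 31 to 33 genes are below the wt mean. So are 30 to 33 genes in wt replicates 5 and 7, and 29 and 25 in 1KI replicates 1 and 2. In 3bKI replicate 1, 3 genes are below it, as in wt replicate 3.

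In livers without E2f3a the oxidation genes showed slightly higher values than in wt, but none passed the test. Limma with Benjamini-Hochberg adjustment called 0 of 36 genes higher and 0 lower, against 0% of all genes in either direction. At an unadjusted p under 0.05, 3 genes were higher and 1 lower, where 3.62% and 3.84% of all genes were. The log2 change was above 0 for 31 of 36 genes, against 50.5% of all genes, with a median of 0.13 beside 0.0017 over all genes. That median was 0.067 without wt replicate 5 and 0.068 without wt replicate 7, the wt livers with the lowest shifts. Both were males by Xist and Y-linked genes. With this inferred sex as a covariate the median was 0.096. With the log2 3′ to 5′ ratio of the beta-actin control probe sets as a covariate it was 0.054, with 26 of 36 genes above 0. In bulk tissue, a difference in RNA per cell and a difference in the share of cells cannot be told apart.

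Among mitochondrial enzymes, each of the 14 genes of the oxidation cycle had a log2 change above 0 in 3aKO, from 0.021 to 0.27. Hadha, the subunit of the trifunctional protein that hydrates and dehydrogenates long chains, had log2 values of 11.89, 11.66, 11.93, 11.71 and 11.79 in 3aKO and 11.30 to 11.84 in wt, with a median of 11.52. The ranges overlapped, and the log2 change was 0.27 ± 0.09 (adjusted p = 0.641). Acads, the dehydrogenase of short chains, had a log2 change of 0.17 ± 0.07 (adjusted p = 0.658). Each of the 7 peroxisomal genes was also above 0, from 0.040 to 0.43. Decr2, the reductase that peroxisomes need for polyunsaturated chains, was at 0.29 ± 0.11 (adjusted p = 0.641), and Ehhadh, the bifunctional enzyme of the peroxisomal cycle, at 0.43 ± 0.23.

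Cyp4a14, an omega-hydroxylase and a sensitive target of PPARalpha, had log2 values of 11.29, 9.89, 10.67, 10.04 and 11.27 in 3aKO. In wt it ranged from 7.04 to 10.85 with a median of 10.14. The groups overlapped, 3 wt livers were lower than any 3aKO liver, and the log2 change of 1.36 ± 0.65 did not pass the test (adjusted p = 0.679). The receptor itself pointed the other way. Ppara had log2 values of 10.20, 10.22, 9.87, 10.75 and 10.41 in 3aKO and 10.14 to 11.12 in wt, with a median of 10.74. Only 1 knock-out liver was below all wt livers, and the log2 change was -0.47 ± 0.17 (adjusted p = 0.641). Of its secreted and surface targets, the hormone Fgf21 had a log2 change of -0.41 ± 0.34 and the pantetheinase Vnn1 one of -1.20 ± 0.99. Bdh1, which makes the ketone body beta-hydroxybutyrate, was at -0.042 ± 0.14.

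In 1KI tumours the gene group was lower in part of the tumours. Limma called 0 of 36 genes higher and 0 lower than in wt, where 0.209% and 0.033% of all genes were called. At an unadjusted p under 0.05, 14 genes were lower and 0 higher, where 10% and 9.05% of all genes were. The log2 change was below 0 for 32 of 36 genes, against 56.7% of all genes, and its median was -0.35 beside -0.033 over all genes. Without replicate 3 the median was -0.21, and without replicates 3 and 4 together it was -0.070, with 25 of 36 genes below 0 and 3 genes lower at an unadjusted p under 0.05 (3.96% of all genes). Replicates 3 and 4 also had the lowest log2 3′ to 5′ ratios of beta-actin in the group, 0.91 and 0.95 beside 1.05 to 1.28 in the other 3 tumours and 0.63 to 1.38 in wt. With this ratio, a sign of RNA quality, as a covariate, the median was -0.34. The same ratio of GAPDH was 0.067 and 0.23 in replicates 3 and 4, beside 0.13 to 0.17 in the other 3 tumours and 0.13 to 0.28 in wt. By this ratio replicate 3 was the lowest and replicate 4 the highest of the group, and a difference in RNA quality was not tested.

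**Figure D2:**
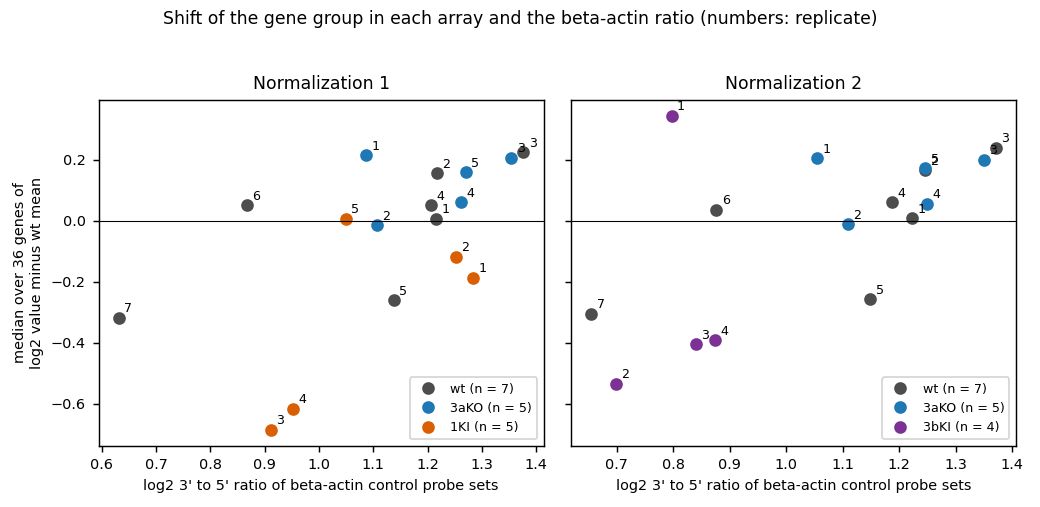
Shift of the 36 genes in each array (vertical, median of log2 value minus wt mean) against the log2 3′ to 5′ ratio of the beta-actin control probe sets (horizontal), in each normalization, with the replicate number beside each point. 1KI replicates 3 and 4 and 3bKI replicates 2, 3 and 4 are lowest, and the 4 3bKI tumours lie to the left of the 5 3aKO livers.

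Of the mitochondrial cycle, Etfa was the one member that was lower in every 1KI tumour than in every wt liver, where 0.863% of all genes were. It encodes a subunit of the electron transfer flavoprotein, which takes electrons from the acyl-CoA dehydrogenases. Its log2 values were 12.59, 12.53, 12.32, 12.25 and 12.56 in 1KI and 12.68 to 12.84 in wt, with a median of 12.74. The log2 change was -0.30 ± 0.07 (adjusted p = 0.112). Etfdh, which passes these electrons to ubiquinone, showed a split between tumours. Its log2 values were 10.99, 11.29, 9.91, 10.15 and 11.04 in 1KI and 10.86 to 11.60 in wt, with a median of 11.47. Only replicates 3 and 4 were below the wt range, and the log2 change was -0.73 ± 0.23 (adjusted p = 0.159).

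The chain-length dehydrogenases had log2 changes of -0.49 ± 0.16 for Acadvl (very long chains), -0.30 ± 0.14 for Acadl (long), -0.37 ± 0.13 for Acadm (medium) and -0.39 ± 0.12 for Acads (short). Acads had log2 values of 10.62, 10.40, 10.12, 10.001 and 10.79 in 1KI and 10.64 to 10.94 in wt, with a median of 10.77, so that 4 of 5 tumours were below every wt liver. Its adjusted p was 0.162. Echs1, the hydratase for shorter chains, was at -0.059 ± 0.11, and at 0.076 without replicates 3 and 4. The trifunctional protein genes Hadha and Hadhb, the dehydrogenase Hadh, the thiolase Acaa2, the isomerase Eci1, the reductase Decr1 and the flavoprotein gene Etfb lay between -0.41 and -0.13. The carnitine shuttle was not uniform. Cpt2, which releases the acyl chain inside the mitochondrion, was at -0.65 ± 0.24 (adjusted p = 0.192), and Cpt1a, which loads it on carnitine at the outer membrane and sets the pace of entry, was at 0.18 ± 0.15. The log2 values of Cpt1a were 12.59 and 12.39 in replicates 3 and 4, above the highest wt liver at 12.13, and 11.79, 11.85 and 11.99 in replicates 1, 2 and 5. Slc25a20, the carrier that moves acylcarnitine across the inner membrane, was at -0.50 ± 0.19, and Crat, which handles acetyl groups, at -0.40 ± 0.27.

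Among peroxisomal genes, Decr2 had the lowest p. Its log2 values were 10.998, 10.56, 10.64, 10.44 and 11.13 in 1KI and 10.97 to 11.56 in wt, with a median of 11.44. Of the 5 tumours, 3 were below every wt liver, and the log2 change was -0.59 ± 0.14 (adjusted p = 0.104). These 3 tumours were the males by Xist and Y-linked genes. With sex as a covariate Decr2 passed the test (-0.58, adjusted p = 0.0294), as it did with all 3 groups in the fit (adjusted p = 0.0316), while the adjusted p over its alternatives ranged from 0.0294 to 0.429. Acaa1a, a peroxisomal thiolase, was at -0.37 ± 0.11 (adjusted p = 0.147), and Pex11a, which divides peroxisomes, at -0.30 ± 0.40. Acaa1b, Ehhadh, Eci2 and Crot, the octanoyltransferase that readies shortened chains for export, lay between -0.53 and -0.37. Of the entry genes, Slc27a2, a transporter that also activates very long chains, was at -0.20 ± 0.09, and the binding protein Fabp1 at -0.11 ± 0.08.

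PPARalpha and its most responsive targets had wide ranges in the 1KI tumours, and for some of them in wt livers too. Ppara had log2 values of 10.13, 9.66, 10.55, 9.67 and 10.88. Of these, 3 were below every wt liver, and the log2 change was -0.58 ± 0.22 (adjusted p = 0.200). Replicate 3, with the lowest shift, had a Ppara value inside the wt range. Cyp4a14 was at 10.42, 8.27, 5.34, 4.60 and 10.13, a range of 5.83 log2 units beside 3.81 in wt, and its log2 change was -1.52 ± 1.07. Fgf21 was at 6.31, 8.11, 7.56, 9.10 and 5.99 beside 5.70 to 7.58 in wt, with a log2 change of 0.64 ± 0.51. By inferred sex, Cyp4a14 was at 4.60 to 8.27 in the 3 male 1KI tumours and at 10.13 to 10.42 in the 2 females. Fgf21 was at 7.56 to 9.10 in these males and at 5.99 to 6.31 in the females. Among normal livers the sexes overlapped for both genes. Vnn1 had a range of 3.93 log2 units in 1KI and 5.78 in wt, and a log2 change of -1.24 ± 0.94. None of these passed the test.

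The 1KI tumours were next compared with 3aKO livers, in a comparison that shares its arrays with both of those above. Limma called 0 of 36 genes in either direction, and 0% of all genes. At an unadjusted p under 0.05, 21 genes were lower, where 8.01% of all genes were, and 0 were higher. The log2 change was below 0 for 33 of 36 genes (54.7% of all genes) with a median of -0.47 beside -0.018 over all genes, and without 1KI replicates 3 and 4 the median was -0.25, with 15 genes lower at an unadjusted p under 0.05 (4.7% of all genes). In 6 genes, Acadvl, Etfa, Etfdh, Acaa1a, Eci2 and Decr2, every 1KI tumour was below every 3aKO liver, where 1.96% of all genes were. For Decr2 the 3aKO values were 11.69, 11.51, 11.71, 11.53 and 11.73, and the log2 change was -0.88 ± 0.13 (adjusted p = 0.0788). Ppara showed no such gap, at -0.11 ± 0.25. With the beta-actin ratio as a covariate, the median over the 36 genes was -0.34. At an unadjusted p under 0.05, 14 genes were then lower, where 4.5% of all genes were.

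**Figure D3:**
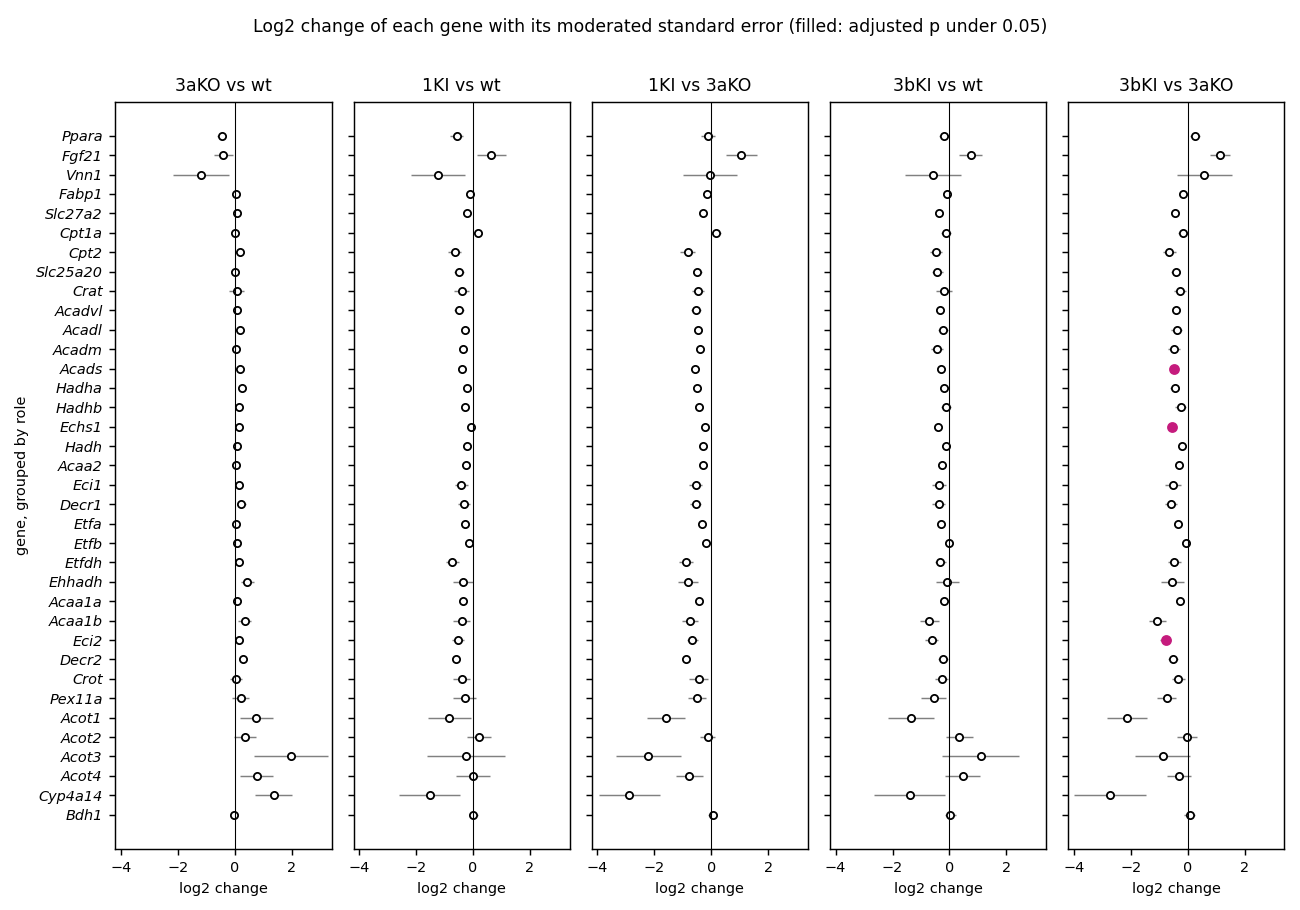
Log2 change of each of the 36 genes (vertical, grouped by role) with its moderated standard error, in the 5 comparisons. Filled points passed limma's test at an adjusted p under 0.05, which only Acads, Echs1 and Eci2 did, in 3bKI against 3aKO.

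In 3bKI tumours the gene group was lower in 3 of 4 tumours. Against wt, limma called 0 of 36 genes higher and 0 lower, where 1.09% and 0.978% of all genes were called. With each array centred on its median the calls over all genes were 1.08% higher and 3.01% lower, and 2 of the 36 genes were lower. At an unadjusted p under 0.05, 9 genes were lower and 0 higher, where 10.9% and 9.84% of all genes were. The log2 change was below 0 for 31 of 36 genes, against 46.9% of all genes, and its median was -0.27 beside 0.014 over all genes. Without 3bKI replicate 1 the median was -0.42, and 7 genes were called lower, where 1.4% of all genes were: Slc27a2, Acadvl, Acadm, Acads, Acaa2, Etfa and Eci2. As replicate 1 was picked by the values of these genes, that count is a description. Without replicate 2, which also has an unclear sex, the median was -0.16, and without wt replicate 7 Echs1 alone was called, where 2.72% of all genes were lower. By Xist and Y-linked genes the other 3bKI tumours were 3 females, while wt held 3 females and 4 males, so sex differs with the group. With sex as a covariate, which leaves out replicate 2, the median was -0.31 and 0 members were called. Over all genes, 0.275% were then called higher and 0.0934% lower.

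Acads and Echs1 had the lowest p of the members in this comparison. Acads had log2 values of 10.56, 10.26, 10.42 and 10.29 in 3bKI and 10.59 to 10.85 in wt, with a median of 10.68. It was the one member with every tumour below every wt liver, as 2.38% of all genes were, and its log2 change was -0.31 ± 0.08 (adjusted p = 0.0698). Echs1 had log2 values of 11.65, 11.58, 11.43 and 11.73 in 3bKI and 11.69 to 12.22 in wt, with a median of 11.95. Of the 4 tumours 3 were below the wt range, and the log2 change was -0.39 ± 0.11 (adjusted p = 0.0809). They were also the 2 members whose value in replicate 1 lay below every wt liver.

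Most other mitochondrial genes followed the pattern of the arrays. Etfa was at 12.68, 12.38, 12.15 and 12.34 beside 12.63 to 12.79 in wt, with a log2 change of -0.30 ± 0.09 (adjusted p = 0.0970). Acadm was at 13.38, 12.30, 12.34 and 12.46 beside 12.71 to 13.30 in wt. Replicate 1 was thus above and the other tumours below the whole wt range. The log2 change of Acadm was -0.44 ± 0.20 (adjusted p = 0.234) with the 4 tumours and -0.69 ± 0.14 (adjusted p = 0.0276) without replicate 1. The smallest difference of the cycle was that of Etfb, the other subunit of the electron transfer flavoprotein, at -0.012 ± 0.10. The 9 remaining genes of the cycle lay between -0.38 and -0.12. In the shuttle, Cpt2 was at -0.48 ± 0.21, Slc25a20 at -0.42 ± 0.21, Crat at -0.20 ± 0.29 and Cpt1a at -0.11 ± 0.17.

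The transporter Slc27a2 was at 13.79, 13.15, 13.11 and 13.21 in 3bKI and 13.53 to 13.85 in wt, with a log2 change of -0.36 ± 0.13 (adjusted p = 0.138) that was -0.52 ± 0.09 (adjusted p = 0.0170) without replicate 1. Fabp1 was at -0.10 ± 0.09. Among peroxisomal genes, the isomerase Eci2, which moves double bonds into position, was at 11.34, 10.06, 10.55 and 10.69 beside 10.79 to 11.64 in wt. Its log2 change was -0.62 ± 0.22 (adjusted p = 0.143). The thiolase Acaa1b had the largest peroxisomal change, -0.71 ± 0.34, and Ehhadh the smallest, -0.080 ± 0.40, with log2 values of 12.80, 10.38, 10.99 and 11.06. In Ehhadh, replicate 1 was above every wt liver and the other tumours were inside or below the wt range of 10.58 to 12.04. Pex11a was at -0.56 ± 0.44, and Crot, Decr2 and Acaa1a lay between -0.27 and -0.21.

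Ppara itself was within the wt range in each 3bKI tumour, at 10.85, 10.38, 10.40 and 10.29 beside 10.05 to 11.01 in wt, with a log2 change of -0.19 ± 0.17. Its omega-oxidation target Cyp4a14 was at 12.34, 4.18, 7.30 and 7.44 beside 6.94 to 10.80 in wt. The highest and the lowest of these 11 arrays were both 3bKI tumours, and the log2 change was -1.40 ± 1.25 with them and -2.91 ± 0.96 (adjusted p = 0.121) without replicate 1. Fgf21 was at 8.29, 7.49, 6.56 and 7.27, with a log2 change of 0.75 ± 0.40, and Vnn1 at -0.59 ± 0.98. Bdh1 was at 0.030 ± 0.19.

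Against 3aKO livers, with the same tumours and the 3aKO arrays used above, 3 of 36 genes fell in 3bKI tumours and 0 rose, where 6.27% and 2.92% of all genes were called, a share near the background. With each array centred on its median the shares of all genes were 9% and 1.8%, and 6 of the 36 genes were lower. The 3 genes were Acads, Echs1 and Eci2. The log2 change was below 0 for 32 of 36 genes, against 45.3% of all genes, with a median of -0.41 beside 0.030 over all genes. At an unadjusted p under 0.05, 15 genes were lower and 1 higher, where 15.7% and 13.4% of all genes were.

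Acads had 3aKO values of 10.85, 10.65, 10.96, 10.91 and 10.99, all above the 4 tumours. It fell by 0.49 ± 0.10 on the log2 scale, or 1.40-fold (adjusted p = 0.0209). Echs1 had 3aKO values of 12.07, 12.02, 12.07, 12.19 and 12.35, again without overlap, and was lower in 3bKI by a log2 change of -0.55 ± 0.09, or 1.46-fold (adjusted p = 0.0159). Eci2 was at 11.34, 11.41, 11.41, 11.55 and 11.44 in 3aKO, and 3bKI replicate 1, at 11.34, lay just below the lowest of them. Its log2 change was -0.77 ± 0.20, or 1.71-fold lower (adjusted p = 0.0449). Etfa was the fourth gene with no overlap, where 8.95% of all genes were lower without overlap, and missed the test (-0.35 ± 0.10, adjusted p = 0.0583).

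**Figure D4:**
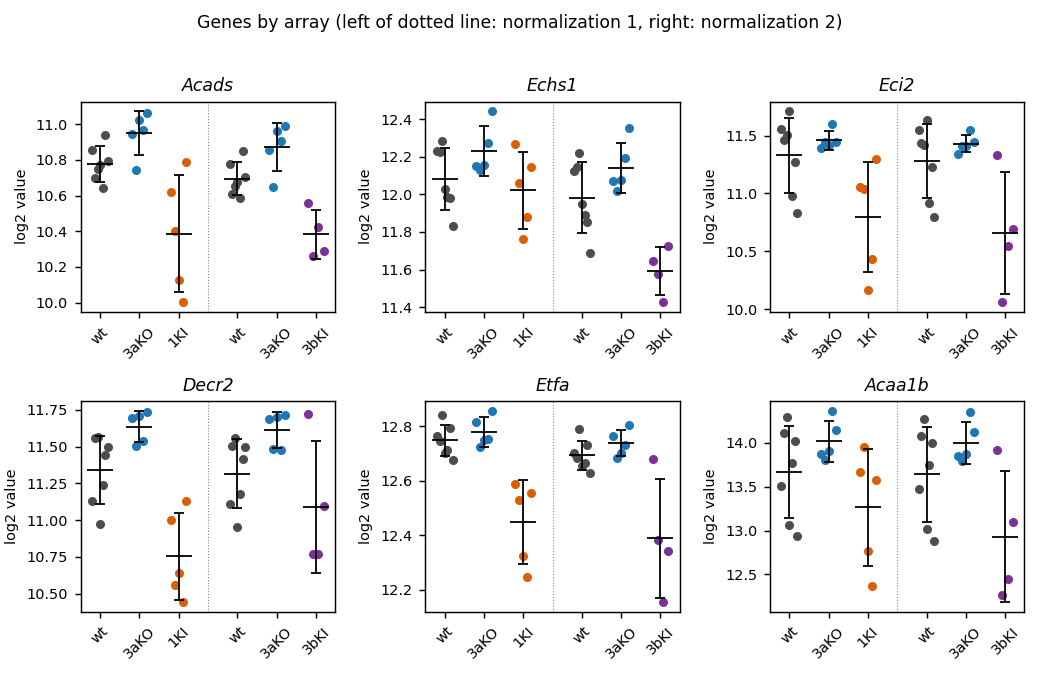
Log2 values (vertical) of Acads, Echs1, Eci2, Decr2, Etfa and Acaa1b in each array by group (horizontal), with means and standard deviations as bars, for normalization 1 left and normalization 2 right of the dotted line. The 4 3bKI tumours are below the 5 3aKO livers for Acads, Echs1, Eci2 and Etfa, and overlap them for Decr2 and Acaa1b through replicate 1.

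The number of called genes depended on single arrays and on covariates. Replicate 1 of 3bKI stood out by its high values of these genes, so more calls of lower genes without it are no separate support. Without 3bKI replicate 1, 22 of 36 genes were called lower, where 5.12% of all genes were, with a median of -0.56. These were 14 of the 18 mitochondrial genes, 5 of the 7 peroxisomal genes, Slc27a2, Acot1 and Cyp4a14. Without 3aKO replicate 4, or without 3aKO replicate 5, Echs1 was the 1 gene called, where 2% and 2.36% of all genes were lower. With the inferred sex as a covariate, which leaves out replicate 2, 0 were called, where 0.456% of all genes were lower, and the adjusted p of Acads, Echs1 and Eci2 were 0.0786, 0.0765 and 0.177.

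The beta-actin 3′ to 5′ ratio moved with the groups. Its log2 value was 0.70 to 0.87 in 3bKI and 1.06 to 1.35 in 3aKO, without overlap, and 0.65 to 1.37 in wt. With this ratio as a covariate, 0 of the 36 genes and 0% of all genes were called in either 3bKI comparison, and the median change of the group was -0.24 against 3aKO and -0.083 against wt. In 3bKI against 3aKO, the ratio and the group cannot be told apart. Replicate 1, at 0.80, had a ratio within the range of the other 3 tumours and the highest shift of any array. The GAPDH ratio had another pattern, at 0.14 to 0.18 in 3bKI, 0.15 to 0.26 in 3aKO and 0.20 to 0.32 in wt. It overlapped between 3bKI and 3aKO, and every 3bKI tumour was below every wt liver. Whether RNA quality differed between the groups was not tested.

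Among the members that missed the test against 3aKO, Acaa1b was at 13.92, 12.26, 12.45 and 13.10 in 3bKI and 13.85, 13.79, 13.87, 14.36 and 14.13 in 3aKO. The overlap came from replicate 1, and the log2 change was -1.07 ± 0.30 (adjusted p = 0.0513). Without replicate 1 it was -1.40 ± 0.20, or 2.63-fold lower (adjusted p = 0.0116). Cyp4a14 had 3aKO values of 11.18, 9.87, 10.59, 9.97 and 11.18, and its log2 change of -2.74 ± 1.26 became -4.25 ± 0.71 (adjusted p = 0.0148) without replicate 1. Fgf21 was the member with an unadjusted p under 0.05 in the higher direction, at 1.13 ± 0.36 (adjusted p = 0.0707). Ppara had a log2 change of 0.26 ± 0.17 on its brightest probe set, which became -0.082 as a mean over its probe sets.

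Acyl-CoA thioesterases release free fatty acids from coenzyme A in cytosol, mitochondria and peroxisomes, and several of them had higher values in most female livers than in males. The labels give no sex, and it was read from Xist and 3 Y-linked genes, which gave 6 females and 6 males among the 12 normal livers. In 3 of the 36 members, Acadl, Etfb and Acot2, every normal female liver was above every normal male liver, where 1.19% of all genes were, and in 0 members it was below (1.07% of all genes). Acot2, a mitochondrial thioesterase, was at 8.81 to 9.49 in the females and at 7.19 to 8.55 in the males. Acot1, the cytosolic one, overlapped, at 7.27 to 8.82 and 4.52 to 8.09. Acot3, a peroxisomal member, was at 11.13 to 11.97 in the 6 females. In the males it was at 5.42 to 8.21 in 4 wt livers and at 7.32 and 11.53 in the 3aKO livers, so that 1 male lay within the female range. Acot4 was at 9.64 to 10.38 in the females and at 7.17 to 9.71 in the males. In 1KI tumours Acot3 was at 10.75 and 10.89 in the 2 females and at 6.15 to 7.48 in the 3 males, and in 3bKI at 9.92 to 10.70 in the 3 females and at 7.75 in the tumour of unclear sex. These values are a description, without a test, and the groups differ in their share of females.

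**Figure D5:**
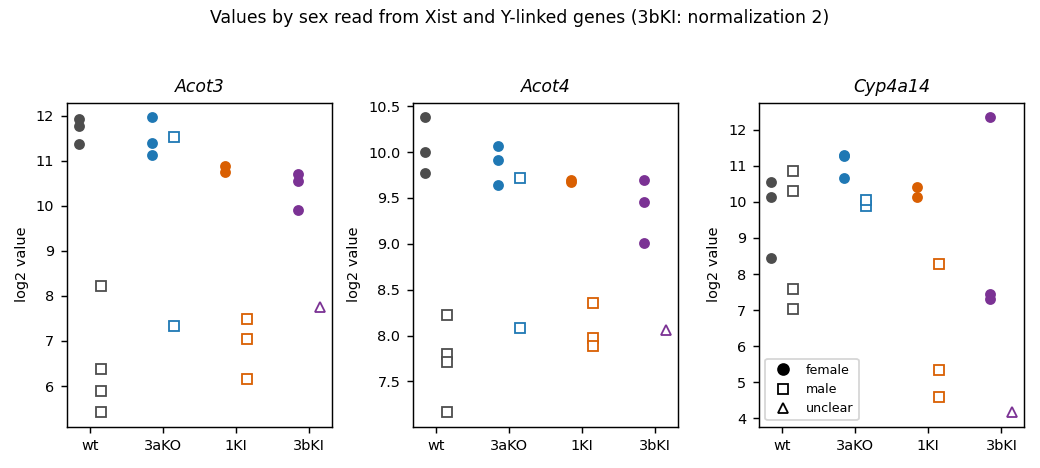
Log2 values (vertical) of Acot3, Acot4 and Cyp4a14 by group (horizontal), with filled circles for females, open squares for males and an open triangle for the 3bKI tumour of unclear sex. For Acot3 and Acot4 the females are above the males, apart from 1 male 3aKO liver that lies among the females.

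Between genotypes no thioesterase passed the test. The log2 changes of Acot1, Acot2, Acot3 and Acot4 in 1KI against wt were -0.84 ± 0.76, 0.22 ± 0.42, -0.25 ± 1.37 and -0.0070 ± 0.60. In 3bKI against wt they were -1.36 ± 0.81, 0.35 ± 0.49, 1.09 ± 1.36 and 0.47 ± 0.62. Acot1 was low in the arrays that stood apart, at 5.45 and 4.55 in 1KI replicates 3 and 4 and at 4.10, 6.17 and 4.98 in 3bKI replicates 2, 3 and 4. One wt liver, replicate 7, was as low, at 4.52. Acot1 and Acot2, and likewise Acaa1a and Acaa1b, are close copies in sequence, so the split of signal between them is uncertain.

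The other genes of the pathway were read from a list of 92 genes, of which 81 were measured. In 3bKI tumours against wt, 1 of 81 rose and 8 fell, beside the 1.09% and 0.978% of all genes given above. Pdk4, the kinase that turns glucose oxidation off in favour of fat and a classical PPARalpha target, rose by a log2 change of 1.44 ± 0.29 (adjusted p = 0.0317). Lower were Slc27a5, a bile acid and fatty acid ligase (-0.54 ± 0.09), Prkaa2, a catalytic subunit of the energy sensor AMPK (-0.60 ± 0.10), and Acadsb and Ivd, dehydrogenases of branched amino acid chains (-0.68 ± 0.12 and -0.52 ± 0.09). Med1, a coactivator of nuclear receptors, was lower as well (-0.44 ± 0.08). The other 3 were Bdh2, Ncoa2 and Sirt1. Without 3bKI replicate 1, 1 rose and 17 fell, where 1.91% and 1.4% of all genes did. With the inferred sex as a covariate, calls over all genes in this comparison were 0.275% higher and 0.0934% lower. With the beta-actin ratio as a covariate they were 0% in both directions, so none of these calls held.

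Against 3aKO, 2 of the 81 genes rose in 3bKI and 14 fell, beside the 2.92% and 6.27% of all genes given above. Pdk4 rose by 0.99 ± 0.17 (adjusted p = 0.0145). Those of lowest p among the lower genes were Acadsb (-0.73 ± 0.10), Ivd (-0.76 ± 0.11), Med1 (-0.50 ± 0.08), Prkaa2 (-0.70 ± 0.12) and Slc27a5 (-0.53 ± 0.10). Further genes were picked after their values were seen. The retinoid X receptor gene Rxra, the partner of PPARalpha on DNA, fell by 0.49 ± 0.12 (adjusted p = 0.0328), Klb, the co-receptor through which FGF21 acts, fell by 0.48 ± 0.10 (adjusted p = 0.0222), and the receptor tyrosine kinase gene Fgfr1 rose by 0.55 ± 0.12 (adjusted p = 0.0267). Without 3bKI replicate 1, 2 rose and 30 fell, where 2.8% and 5.12% of all genes did. Calls over all genes against 3aKO were 0.341% higher and 0.456% lower with the inferred sex as a covariate. They were 0% in both directions with the beta-actin ratio as a covariate, so none of the calls against 3aKO held. In the other 3 comparisons 0 of 81 genes were called by limma, and at an unadjusted p under 0.05 there were 18 lower and 6 higher in 1KI against wt (10% and 9.05% of all genes). There were 28 lower and 7 higher in 1KI against 3aKO (8.01% and 6% of all genes), and 2 lower and 4 higher in 3aKO against wt (3.84% and 3.62% of all genes). In 1KI against wt the lowest p belonged to Oxct1, which uses ketone bodies and is low in normal liver (0.66 ± 0.14, adjusted p = 0.0780), followed by Retsat, a retinol saturase (-1.48 ± 0.41), and Pex16, needed for peroxisome membranes (-0.50 ± 0.15). In 1KI against 3aKO it belonged to Klb (-0.81 ± 0.18), Pex16 (-0.65 ± 0.16) and Cpt1c (0.44 ± 0.11), and in 3aKO against wt to Klb (0.39 ± 0.12), Ivd (0.25 ± 0.10) and Cyp4a31 (-0.38 ± 0.15).

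Several members have more than 1 probe set, and these did not always point the same way. Of the 19 members with several probe sets, the direction differed between them for 8 in 3aKO against wt, for 2 in 1KI against wt and in 1KI against 3aKO, for 3 in 3bKI against wt and for 7 in 3bKI against 3aKO. Acaa2, the mitochondrial thiolase, was at -0.27 ± 0.12 in 1KI against wt on the probe set used and at 0.22 ± 0.26 on another. Each of the 3 Ppara probe sets was below 0 in both tumour groups against wt, with -0.51 ± 0.17 and -0.35 ± 0.17 on the others in 3bKI.

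As the members lay mostly on the same side of 0 in each tumour comparison, the DNA before their start sites was read for the element that PPARalpha binds as a pair with a retinoid X receptor. Windows from 250 bases before to 50 bases after the start came from RefSeq on GRCm38.p6 and were found for 32 of the 38 genes; Vnn1, Crat, Acaa2, Decr1, Cyp4a10 and Cyp4a14 are not in the table. The core motif AGGTCA, searched on both strands, was in 8 of 32 genes, in 9 of 35 windows (25.7%), and in 16.3% of all 32851 windows. The direct repeat AGGTCANAGGTCA was in 0 of 35 windows and in 0.0396% of all windows. The looser repeat AGGNCANAGGNCA, which can overlap the core motif, was in 1 of 35 windows, that of Fabp1, and in 0.381% of all windows. A motif of E2F type, TTTNNCGC, was in 0 of 35 windows and in 5.17% of all. Hadha and Hadhb start head to head on opposite strands, so their windows overlap. A match is a description of letters and not a site. The 250 bases before the start are shown for the 3 genes that fell in 3bKI against 3aKO and for Fabp1, with the core motif or the looser repeat in capitals and each sequence on the strand of its gene. Acads is at chr5:115119347-115119596 (minus strand), Echs1 at chr7:140116422-140116671 (minus strand), Eci2 at chr13:34994145-34994394 (minus strand) and Fabp1 at chr6:71199629-71199878 (plus strand).
Acads: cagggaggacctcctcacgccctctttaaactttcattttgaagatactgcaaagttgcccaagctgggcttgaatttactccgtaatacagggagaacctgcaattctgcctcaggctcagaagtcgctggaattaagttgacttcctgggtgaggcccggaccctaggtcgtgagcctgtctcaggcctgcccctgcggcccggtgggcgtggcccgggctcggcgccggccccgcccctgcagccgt
Echs1: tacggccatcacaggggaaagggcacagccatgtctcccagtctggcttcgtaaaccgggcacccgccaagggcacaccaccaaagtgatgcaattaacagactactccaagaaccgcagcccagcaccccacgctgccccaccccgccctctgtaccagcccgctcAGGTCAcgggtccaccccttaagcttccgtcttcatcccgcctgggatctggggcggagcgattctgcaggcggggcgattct
Eci2: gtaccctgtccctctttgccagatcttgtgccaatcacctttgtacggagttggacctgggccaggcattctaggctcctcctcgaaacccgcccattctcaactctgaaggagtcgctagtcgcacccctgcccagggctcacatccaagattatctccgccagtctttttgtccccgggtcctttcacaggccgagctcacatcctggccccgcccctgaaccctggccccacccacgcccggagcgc
Fabp1: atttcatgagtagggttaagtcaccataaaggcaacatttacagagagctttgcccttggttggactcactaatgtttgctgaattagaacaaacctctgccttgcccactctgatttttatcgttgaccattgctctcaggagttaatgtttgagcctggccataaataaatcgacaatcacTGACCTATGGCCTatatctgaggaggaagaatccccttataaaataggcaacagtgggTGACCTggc
The stretches of Acads and Eci2 hold no core motif. That of Echs1 holds 1, at 83 bases before the start, and that of Fabp1 holds the looser repeat on the opposite strand, at 67 bases before the start, and a further core motif.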

How the data were processed

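The authors deposited log2 expression values of Affymetrix probe sets from Trizol-extracted total RNA, of which 5 ug was labelled per the labels' protocols. The method of their 2 normalizations is not given in the sources used here. The 33 columns hold 21 arrays, since the 12 wt and 3aKO arrays appear in both. Single member values of one array differed between them by -0.27 to 0.040 (normalization 2 minus 1). Of 45101 probe sets, 34945 carry 1 symbol and 932 several, which were left out, and 1 probe set per gene gave 18193 genes. The array number limits the precision.

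For each of the 5 comparisons, limma 3.58.1 (R 4.3.3; lmFit, eBayes) was run on the arrays of both groups alone, checked on simulated data, with two-sided p-values adjusted by Benjamini-Hochberg over all 18193 genes and a threshold of 0.05. Errors after changes are moderated standard errors. Sex came from Xist (cut at 10) and 3 Y-linked genes (cut at 5). The members and lists were chosen with earlier results of these data known. Named with values are Ppara, members passing the test, the 4 members of lowest p per direction, the extremes of each role in the tumour comparisons against wt, and other pathway genes by lowest p. Replicate numbers were not taken as pairs. Correlations of same-numbered deviations ranged from -0.47 to 0.44, and in no comparison was every pair over 0.1. In 3bKI against 3aKO they were 0.063 to 0.28, with 3 of 4 over 0.1. With so few arrays these values cannot settle whether samples are paired. Alternatives were other normalization, centring, filter, probe set and variance choices, covariates and left-out arrays.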

Additional observations from a re-analysis of the deposited data

Results flagged for a closer look

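Within groups of 4 to 7 arrays, 148 sets of values of the 36 genes and of their shift were searched for an array far from the rest by Dixon's criterion, and 15 were found where about 1 in 20, or 7.4, would be found by chance. The sets share their arrays and groups mix the sexes, so 1 array can give several finds, and no excess was tested. In 3bKI, replicate 1 was far above the other tumours for Slc27a2 (13.79), Acadl (12.26), Acadm (13.38) and Hadhb (12.37), and its shift over the 36 genes was 0.35. Among wt livers, replicate 5 was far below the others for Ppara (10.14) and Vnn1 (4.58), and replicate 7 for Cpt2 (10.77), Etfdh (10.86) and Acot1 (4.52). Among 3aKO livers, replicate 4 was far above the others for Acaa2 (13.26) and Eci2 (11.60), and replicate 2 was far below for Acadvl (12.32), Acot3 (7.32) and Acot4 (8.09). Replicate 2 is a male by Xist, and its Acot3 and Acot4 values lay within the range of the male wt livers.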

How the results depend on the processing

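Across the alternatives, 0 members were called higher in any comparison, and 0 were called in 3aKO against wt. Members called lower numbered 2 in 1KI against wt and 1 in 1KI against 3aKO with all 3 groups of a normalization in the fit (0.511% and 0.11% of all genes were lower), and 1 in each with sex as a covariate (0.0934% and 0.0055%). In 3bKI against wt they numbered 2 with centred arrays (3.01% of all genes), 3 with all 3 groups (2.98%) and 1 with array weights (2.26%). They numbered 0 there with sex (0.0934%) and 0 with the beta-actin ratio as a covariate (0%). In 3bKI against 3aKO, where the report gives 3, they numbered 1 after quantile normalization (2.87% of all genes), 6 with centred arrays (9%), 5 without dim genes (12.3%), 8 with all 3 groups (6.76%), 6 with array weights (5.71%), 0 with sex (0.456%) and 0 with the beta-actin ratio as a covariate (0%). With the replicate number as a block, 0 members were called in 3bKI against 3aKO (0.17% of all genes) and 0 in the other comparisons. Whether the numbers pair the samples is not known. Leaving out 1 array at a time, members called lower ranged from 1 to 22 in 3bKI against 3aKO, from 0 to 7 in 3bKI against wt, and were 0 in the other 3 comparisons. The median change of the members then ranged from 0.067 to 0.16 in 3aKO against wt, from -0.42 to -0.21 in 1KI against wt, from -0.52 to -0.35 in 1KI against 3aKO, from -0.42 to -0.16 in 3bKI against wt and from -0.56 to -0.30 in 3bKI against 3aKO. Without 1KI replicates 3 and 4 it was -0.070 against wt. Direction turned for Echs1 in 1KI against wt (0.0094 with array weights, 0.076 without replicates 3 and 4, and -0.12 to 0.0061 leaving out 1 array) and for Ppara in 3bKI against 3aKO (-0.082 as a mean of probe sets). Leaving out 1 array, Ppara in 1KI against 3aKO ranged from -0.29 to 0.018 and Bdh1 in 3aKO against wt from -0.13 to 0.037. The cause was not tested.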
